A study of Mus musculus with 48 samples.

Results

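The genes described here are the enzymes that write and erase methyl groups on lysine 4 of histone H3 (H3K4), with a shared subunit of the writers. They are the methyltransferases Kmt2a, Kmt2b, Kmt2c, Kmt2d, Setd1a and Setd1b, the demethylases Kdm1a, Kdm5a and Kdm5b, and the subunit Wdr5, and they were taken by gene symbol from a table of read counts per gene. All 10 symbols matched a row, 10 of 48440 genes, and all 10 passed the filter on low counts. The RNA came from the hippocampus of 48 female C57BL/6 offspring (C57BL6/J in the methods of the study), killed at 3 months of age, with both hemispheres of an animal pooled and powdered. The libraries are labelled 5-Htt +/+ or 5-Htt +/-, the latter carrying 1 disrupted allele of Slc6a4, the serotonin transporter gene, in every cell of the body. Control offspring (C) came from undisturbed dams, whereas prenatal stress (PS) offspring came from dams that were restrained in 3 daily sessions between embryonic days 13 and 17. PS offspring were divided by their own behaviour in a sociability test into socially affected (SA, PS-susceptible in the labels) and socially unaffected (SU, PS-resilient) animals, so that SA and SU differ by an outcome and not by a treatment. The groups held 8 C, 8 SA and 8 SU libraries of 5-Htt +/+ offspring, and 7 C, 8 SA and 9 SU libraries of 5-Htt +/- offspring. These numbers follow the labels, whereas the methods of the study state an equal number for every group. All animals had passed through the same behavioural tests and blood sampling, each was born to a wildtype dam and a 5-Htt +/- sire, and the litter of each is not given.

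Methyl groups on H3K4 mark active regulatory DNA: trimethylation sits at promoters and monomethylation at enhancers. SETD1A and SETD1B place much of the trimethyl mark at active promoters, KMT2A and KMT2B act at narrower sets of promoters, and KMT2C and KMT2D place the monomethyl mark at enhancers. WDR5 is a core subunit of the complexes that hold these methyltransferases, KDM5A and KDM5B remove trimethyl and dimethyl groups, and KDM1A (LSD1) removes dimethyl and monomethyl groups as part of the CoREST complex. Neuronal function depends on several of these enzymes, and mutations of KMT2D cause Kabuki syndrome, in which cognition is impaired. Only the RNA of these enzymes is described here, neither their protein nor the mark itself.

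H3K4 trimethylation is densest at promoters rich in CG dinucleotides, and 7 of the 10 members have a promoter window in RefSeq (build GRCm38.p6, 250 bases before to 50 after the start of the transcript). The windows of Kmt2d and Setd1a, whose levels rose and fell together over the libraries, and of Kmt2c, whose level did not rise with theirs before a trend with GC content was removed, are printed here with every CG in capitals, read 5′ to 3′ along the gene. Kmt2d lies at chr15:98871156-98871455 on the minus strand, Setd1a at chr7:127777139-127777438 on the plus strand and Kmt2c at chr5:25498734-25499033 on the minus strand.
Kmt2d: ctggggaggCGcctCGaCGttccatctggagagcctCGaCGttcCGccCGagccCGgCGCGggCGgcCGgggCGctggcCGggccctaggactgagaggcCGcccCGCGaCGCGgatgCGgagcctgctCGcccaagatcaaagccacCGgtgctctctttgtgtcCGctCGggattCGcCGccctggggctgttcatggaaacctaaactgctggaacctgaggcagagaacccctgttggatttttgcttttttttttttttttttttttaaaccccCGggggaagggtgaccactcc
Setd1a: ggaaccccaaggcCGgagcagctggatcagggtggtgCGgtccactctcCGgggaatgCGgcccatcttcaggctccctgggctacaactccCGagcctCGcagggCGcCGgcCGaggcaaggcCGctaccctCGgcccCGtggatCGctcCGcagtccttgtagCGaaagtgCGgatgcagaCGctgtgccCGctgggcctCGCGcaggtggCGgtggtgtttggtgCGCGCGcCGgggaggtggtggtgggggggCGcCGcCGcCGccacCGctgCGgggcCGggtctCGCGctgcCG
Kmt2c: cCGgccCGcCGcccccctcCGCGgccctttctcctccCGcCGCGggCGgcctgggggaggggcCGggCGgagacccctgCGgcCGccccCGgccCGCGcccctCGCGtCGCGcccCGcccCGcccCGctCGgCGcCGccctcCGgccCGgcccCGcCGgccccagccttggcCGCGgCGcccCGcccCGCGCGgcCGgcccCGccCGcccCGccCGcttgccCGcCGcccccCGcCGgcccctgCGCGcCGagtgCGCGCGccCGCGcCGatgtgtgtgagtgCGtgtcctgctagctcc
The Kmt2c window held 56 CG dinucleotides, a number reached by 0.195% of the 32851 promoter windows in the same reference. The Setd1a window held 35 (6.95% of windows hold as many or more) and the Kmt2d window 27 (15.5%), against a median of 7 over all windows. The windows of Kmt2a, Kdm1a, Wdr5 and Kdm5b held 36, 29, 22 and 17 CG. A count of CG describes the sequence and says nothing of methylation or binding in these animals. The start used for Setd1a lies 719 bases from the gene start in the annotation used for the counts, and the starts of the other 6 windows lie within 10 bases of it.

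All members were well measured, with 340 to 6501 reads per library. Total counts per library ranged from 16488405 to 38213754. Slc6a4, the gene that the genotype label concerns, split the libraries by label, with the higher level where the label gives a disrupted allele. It reached at most 0.261 CPM (the count of a gene per library brought to the same fixed total, with upper quartile factors) in the 24 libraries labelled 5-Htt +/+. The 24 labelled 5-Htt +/- had at least 12.8 CPM. The reason for this direction was not tested. Every statement on genotype below therefore compares libraries by their label. Oligodendrocyte markers (5 of 5 measured) stood highest in 5-Htt +/- C libraries, where their summed level ranged from 1753 to 3085 CPM, against 1536 to 2322 in 5-Htt +/- SA and 1557 to 1931 in 5-Htt +/- SU. Markers of the choroid plexus, a tissue next to the hippocampus, varied within each group, with summed levels between 25.6 and 909 CPM over all libraries. They also differed in step between groups. All 8 were higher in SA than in SU libraries of 5-Htt +/+ offspring (median log2 difference 0.91). In 5-Htt +/- offspring all 8 were lower in SA than in SU (-0.42), and 0 were called in either comparison. Hippocampal neuron markers were abundant in all libraries (6508 to 8431 CPM summed).

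Per kb of exonic length, the demethylase Kdm1a and the methyltransferase Kmt2a had the highest levels of the 10 members, at 10.6 ± 0.476 and 9.82 ± 0.519 CPM per kb (mean ± SD, n = 48). Kdm1a was above Kmt2a in 45 of 48 libraries, and Kmt2a was above the next member, Wdr5 (6.58 ± 0.419), in 48 of 48. The remaining members lay close together, from Setd1a at 6.26 ± 0.527 and Kmt2c at 5.82 ± 0.375 down to Kdm5a at 3.92 ± 0.419 CPM per kb. Between them were Kmt2d (4.77 ± 0.584), Kmt2b (4.62 ± 0.512), Kdm5b (4.44 ± 0.249) and Setd1b (4.07 ± 0.357). Some neighbours in this order changed places often between libraries: Kmt2d exceeded Kmt2b in 29 of 48 libraries, Kmt2b exceeded Kdm5b in 32, and Setd1b exceeded Kdm5a in 29. Others held their order in most libraries, with Kmt2c above Kmt2d in 42 of 48, Kdm5b above Setd1b in 40, Wdr5 above Setd1a in 39 and Setd1a above Kmt2c in 37. Lengths are those of all annotated exons of a gene merged, so that a gene with many unused exons appears lower than it is. The level of Setd1b is uncertain, because Gm26745, a lincRNA on the opposite strand, spans the whole gene. Both have counts of their own, but how reads were divided between them is not known, as the strand setting of the counting is not given. Setd1a shares 61.9% of its length with RP23-325D10.3, a gene model on the same strand, whose level followed that of Setd1a over the libraries (Pearson's r = 0.94, Spearman's rho = 0.91, both with permutation p = 1e-05, the smallest that 100000 permutations can give, and adjusted p = 4e-05).

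**Figure D1:**
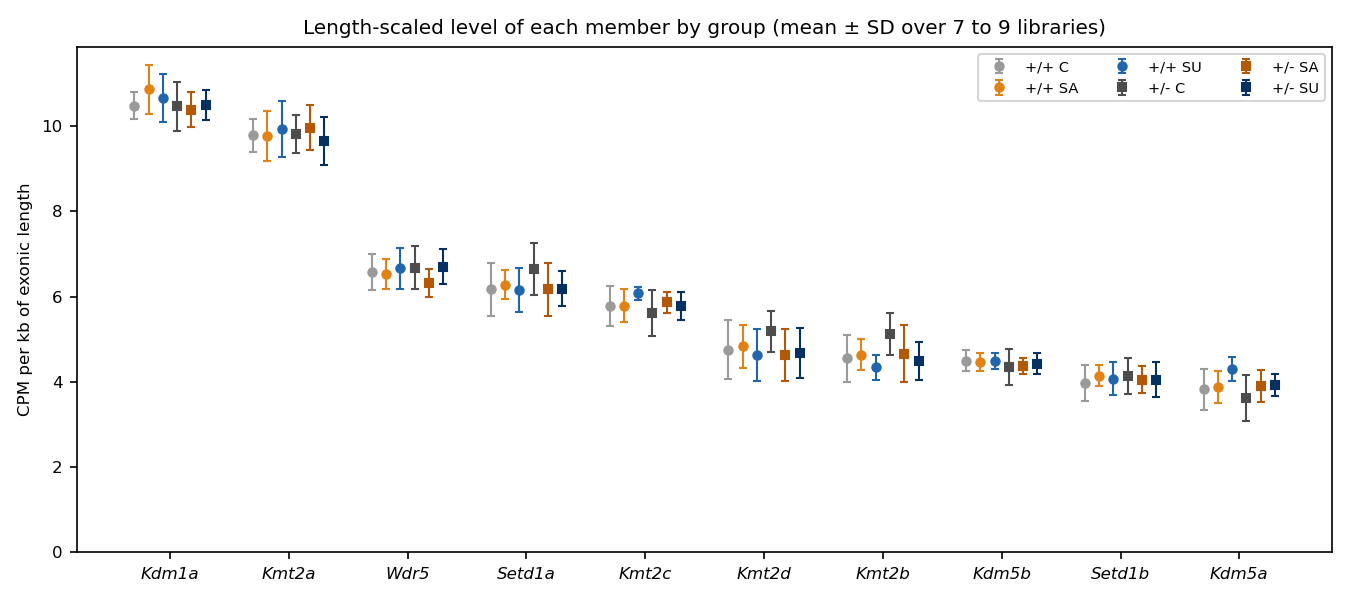
Mean level of each member in CPM per kb of exonic length (y axis) for the 6 groups, with bars of 1 SD over 7 to 9 libraries, ordered by the mean over all libraries. Kdm1a and Kmt2a stand between 9.65 and 10.9 CPM per kb in every group and the others between 3.63 and 6.70, with the 6 groups of each gene close together.

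The main question of the study was whether PS changes hippocampal expression differently in SA and SU offspring of each genotype. For the writers and erasers of H3K4 methylation no such difference was called: in the three-way contrast, which is SA minus SU in 5-Htt +/+ offspring less the same difference in 5-Htt +/- offspring, 0 of 10 members passed an adjusted p of 0.05 in edgeR's quasi-likelihood test, against 0% of 31208 genes. The log2 differences ran from -0.14 for Kdm5a to 0.07 for Kmt2d, with a median of 0.03 over the members and 0.01 over all genes. Their 95% intervals stayed between -0.34 and 0.32. An unadjusted p under 0.05 was held by 0 of 10 members, against 3.7% of all genes. The study itself reported significant genes in this contrast, none of them a member. Its adjustment was restricted to the genes that were nominally significant there, whereas the one used here ran over all genes tested.

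No member was called in any other comparison either. Against controls of the same genotype label, 0 of 10 members passed in 5-Htt +/+ SA (0.0128% of all genes did), 5-Htt +/+ SU (0.0192%), 5-Htt +/- SA (0.0288%) and 5-Htt +/- SU libraries (0.016%). Between SA and SU, 0 of 10 passed in either genotype (0% of all genes in both). Between genotype labels, 0 of 10 passed over all groups (0.0224%) and in controls (0.016%). The difference between the genotypes in the effect of PS, with SA and SU averaged, held 0 of 10 (0%), and the test for any difference among the 6 groups held 0 of 10 (0.0609%), where the smallest adjusted p of a member was 0.715. An unadjusted p under 0.05 was held by 0 of 10 members in 5-Htt +/+ SA against C (3.07% of all genes), 5-Htt +/- SA against C (12.1%), SA against SU in either genotype (3.9% and 3.79%), the genotype labels over all groups (5.01%), the difference in the effect of PS (6.01%) and the test over 6 groups (7.08%). Over the 10 contrasts the 100 log2 differences of the members did not exceed 0.19 in size, and their unadjusted 95% intervals lay between -0.36 and 0.32.

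**Figure D2:**
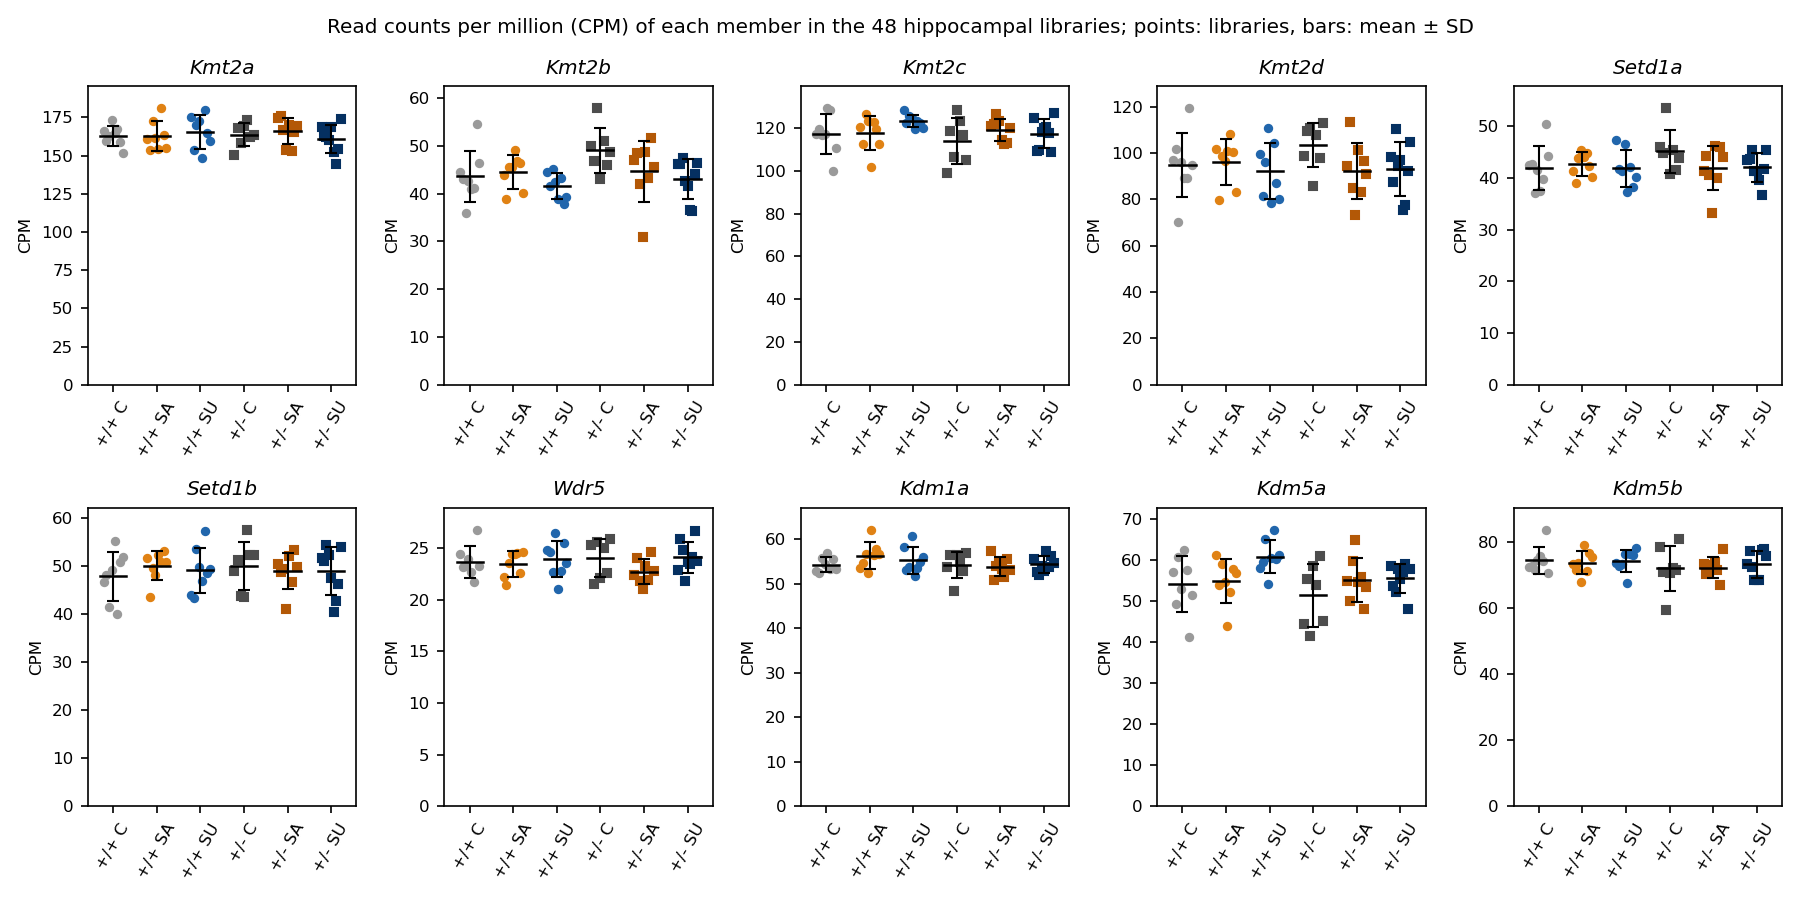
Level of each member in CPM (y axis, from 0) in each of the 48 libraries, grouped by genotype label and condition, with the mean and 1 SD as bars. The 6 groups overlap for every member, and relative to the mean the spread is widest for Kmt2d, Kmt2b and Kdm5a (coefficients of variation of 12.2%, 11.1% and 10.7%).

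Kmt2b, a methyltransferase that acts at promoters and CG-rich DNA, had the largest single log2 difference of the members over the 10 contrasts. Its level was 36.0, 42.8 and 54.5 CPM (lowest, median and highest library) in 5-Htt +/+ C, 38.8, 45.5 and 49.2 in 5-Htt +/+ SA, and 37.8, 42.1 and 45.1 in 5-Htt +/+ SU. In the libraries labelled 5-Htt +/-, it was 43.0, 48.7 and 57.9 CPM in C, 30.9, 46.3 and 51.7 in SA, and 36.3, 44.1 and 47.5 in SU. The 5-Htt +/- C libraries thus held the highest single value and the highest mean (49.1 ± 4.71 CPM), yet their range overlapped with that of every other group. SU differed from C by -0.19 ± 0.07 (log2, SE) in 5-Htt +/- offspring, a ratio of 0.876 (adjusted p = 0.231, unadjusted p = 0.0137). The 5-Htt +/- C libraries differed from the 5-Htt +/+ C libraries by 0.17 ± 0.08 on the same scale (adjusted p = 0.582, unadjusted p = 0.0310). Both comparisons use the 5-Htt +/- C libraries, so the 2 values are not independent. Of the 10 members, 1 had an unadjusted p under 0.05 in the first comparison, where 15.5% of all genes did, and 1 in the second, where 8.51% did. Without 5-Htt +/- C replicate 3 alone, the unadjusted p of Kmt2b rose to 0.0576 in the first comparison and 0.109 in the second. In the second it was also over 0.05 without any one of 5-Htt +/+ C replicates 3, 5 and 6 and 5-Htt +/- C replicate 5.

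Kmt2a, the closest relative of Kmt2b, was among the steadiest of the members. Its lowest and highest values over all libraries were 144 and 181 CPM, and its group means ran from 161 ± 9.29 CPM in 5-Htt +/- SU to 166 ± 8.70 in 5-Htt +/- SA. No direct comparison of 2 groups gave it a log2 difference above 0.05 in size. The SD of Kmt2a within groups was 0.08 on the log2 scale, at percentile 9.31 among the 6964 genes with a level in the range of the members.

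Kmt2c and Kmt2d are the enhancer methyltransferases, and their levels had r = -0.12 within groups, which turned to 0.61 once the GC slope of the library, described further on, was removed. Kmt2d had its highest mean in 5-Htt +/- C libraries, where its values were 86.0, 108 and 113 CPM (lowest, median and highest), against 73.4, 92.8 and 113 in 5-Htt +/- SA and 75.6, 94.3 and 111 in 5-Htt +/- SU. In 5-Htt +/+ offspring it had 70.2, 95.6 and 119 CPM in C, 79.6, 99.6 and 108 in SA and 78.3, 91.6 and 111 in SU. Those ranges overlapped, and the log2 difference from C was -0.16 ± 0.09 in 5-Htt +/- SA and -0.15 ± 0.09 in 5-Htt +/- SU (adjusted p = 0.439 and 0.387). Kmt2c went the other way, with its lowest mean in 5-Htt +/- C (114 ± 10.8 CPM, range 98.8 to 129) and its highest in 5-Htt +/+ SU (123 ± 2.94 CPM, range 119.6 to 128). Its log2 difference from C was 0.07 ± 0.05 in 5-Htt +/+ SU and 0.06 ± 0.05 in 5-Htt +/- SA, and neither passed the test.

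Setd1a and Setd1b, the promoter trimethylases, differed little between groups. Setd1a had 37.2, 42.0 and 50.4 CPM (lowest, median and highest) in 5-Htt +/+ C and 40.8, 44.8 and 53.5 in 5-Htt +/- C. In 5-Htt +/- SA it had 33.1, 42.6 and 46.2 CPM and in 5-Htt +/- SU 36.8, 41.7 and 45.4, both -0.10 ± 0.06 (log2, SE) from their controls with adjusted p of 0.473 and 0.403. Its levels in 5-Htt +/+ SA and SU spanned 39.1 to 45.4 and 37.3 to 47.3 CPM, inside the range of the 5-Htt +/+ C libraries. Setd1b ranged from 40.1 to 57.6 CPM over all libraries, and its group means lay between 47.9 ± 5.12 and 50.0 ± 3.02 CPM. Its largest log2 difference in a direct comparison of 2 groups was 0.06 ± 0.07, reached by SA against C in 5-Htt +/+ offspring and by the genotype labels in controls.

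Wdr5, the shared subunit, is the member with the fewest reads (340 to 898 per library). Its group means lay between 22.7 ± 1.19 CPM in 5-Htt +/- SA and 24.1 ± 1.48 CPM in 5-Htt +/- SU, a difference of -0.08 ± 0.05 (log2, SE) with an unadjusted p of 0.0870. The ranges of those 2 groups were 21.1 to 24.6 and 21.8 to 26.6 CPM, which overlap.

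Among the erasers, Kdm5a varied most. It had 41.4, 55.1 and 62.5 CPM (lowest, median and highest) in 5-Htt +/+ C, 43.9, 55.9 and 61.2 in 5-Htt +/+ SA and 54.3, 60.4 and 67.5 in 5-Htt +/+ SU. In the libraries labelled 5-Htt +/-, it had 41.6, 54.0 and 61.0 CPM in C, 48.0, 54.8 and 65 in SA and 48.2, 57.3 and 59.2 in SU. The 5-Htt +/+ SU group had the highest mean (60.9 ± 4.05 CPM), and its lowest libraries overlapped with the upper part of the other groups. SU exceeded C in 5-Htt +/+ offspring by 0.17 ± 0.07 (log2, SE), a ratio of 1.12 (adjusted p = 0.998, unadjusted p = 0.0265). It was the 1 member of 10 with an unadjusted p under 0.05 in that comparison, where 3.37% of all genes had one, and without 5-Htt +/+ C replicate 7 the unadjusted p was 0.0941. It was also over 0.05 without 5-Htt +/+ C replicate 2 or without 5-Htt +/+ SU replicate 6. SA differed from SU in the same genotype by -0.15 ± 0.07 (adjusted p = 0.999).

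Kdm5b and Kdm1a hardly varied. Kdm5b, the paralog of Kdm5a, had group means between 72.1 ± 6.88 CPM (5-Htt +/- C) and 74.5 ± 4.13 CPM (5-Htt +/+ C) and log2 differences within 0.05 of 0. Kdm1a, the most abundant member per kb, had group means between 53.8 ± 2.11 and 56.3 ± 2.98 CPM. Its SD within groups was 0.06 on the log2 scale, the lowest of the 10 members and at percentile 2.14 among the genes of like level. Its largest log2 difference in a direct comparison of 2 groups was 0.05 ± 0.04, between SA and C in 5-Htt +/+ offspring.

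**Figure D3:**
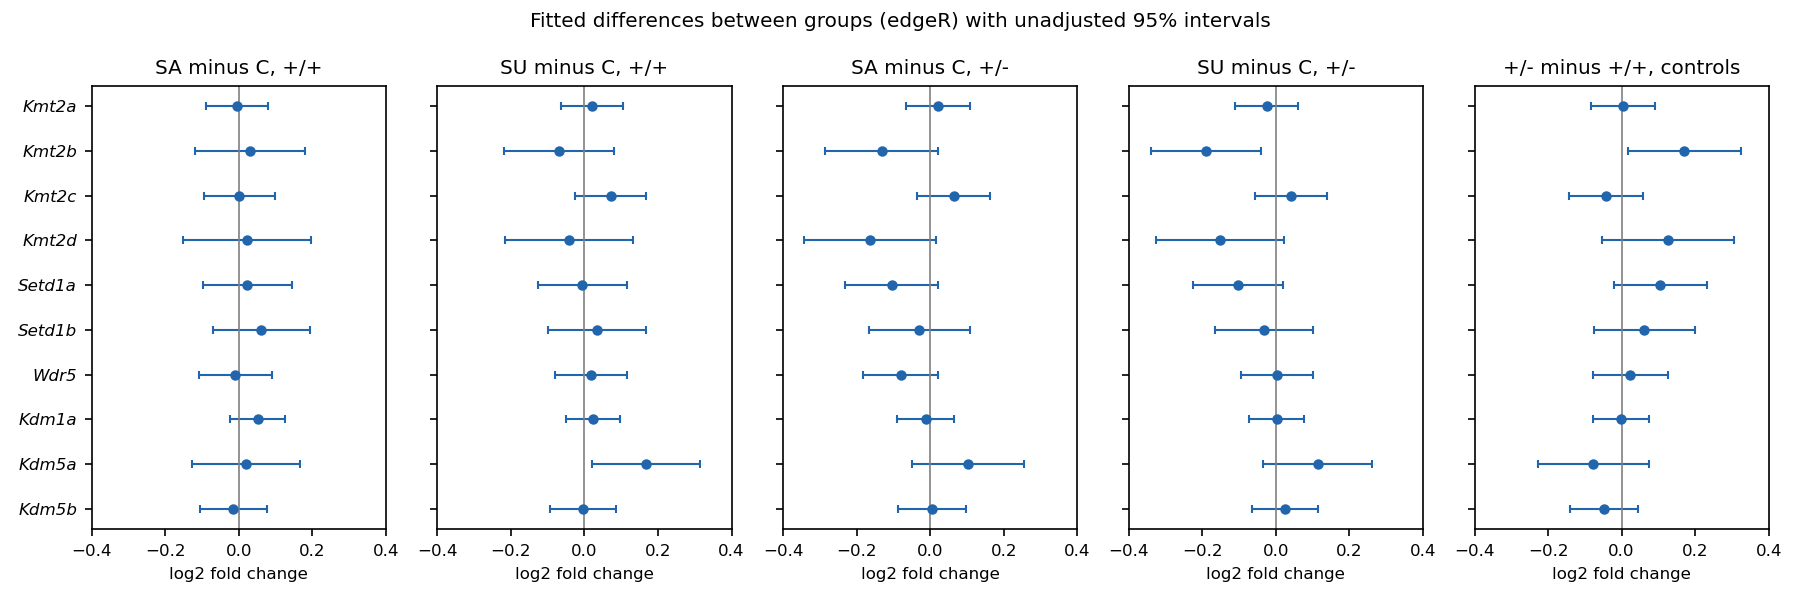
Fitted log2 fold changes (x axis) of the 10 members in 5 comparisons, with unadjusted 95% intervals as bars and a line at 0. The intervals exclude 0 for Kdm5a in 5-Htt +/+ SU against C and for Kmt2b in 5-Htt +/- SU against C and in 5-Htt +/- against 5-Htt +/+ controls, and none of the 3 passed the adjusted test.

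Over the libraries several members moved in opposed sets, and these went in part with the base composition of their transcripts. For each library a GC slope was computed as the slope, over genes, of the log2 level relative to the mean of all libraries on the GC content of the transcript, per 10 percentage points of GC. Kmt2b (58.2% GC) rose with the slope of the library over the 48 libraries (r = 0.77, rho = 0.72), as did Setd1a (56.9% GC, r = 0.73, rho = 0.72) and Kmt2d (58.3% GC, r = 0.69, rho = 0.69). Kdm5a, which has the lowest GC content of the members (43.9%), fell with it (r = -0.88, rho = -0.79), and so did Kmt2c (46.5% GC, r = -0.71, rho = -0.58). Wdr5 (51.3% GC) rose with it at r = 0.64 and rho = 0.61. Of 10 relations tested, 7 passed after Benjamini-Hochberg adjustment, 5 positive and 2 negative. The share of other genes that would pass is not given here. Over the genes of like level, the slope went with a median of 36.2% of the variance within groups, so such relations were not particular to the members. The 6 genes just named had permutation p of 1e-05 or 2e-05 and adjusted p of at most 3.33e-05.

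The seventh was that of Setd1b (59.1% GC, the highest), which was weaker at r = 0.32 and rho = 0.35 (permutation p = 0.0247 and 0.0139, adjusted p = 0.0352 and 0.0199). Kmt2a, Kdm1a and Kdm5b showed no such relation, with r of -0.04, -0.10 and 0.10 and permutation p of 0.771, 0.477 and 0.480 (rho = 0.02, -0.13 and 0.14, permutation p = 0.917, 0.367 and 0.350). Their transcripts had 51.1%, 48.3% and 46.7% GC. Kmt2a was thus near Wdr5 (51.3%) and Kdm5b near Kmt2c (46.5%) in GC content, though Wdr5 and Kmt2c did follow the slope. Without the 2 libraries of the most extreme slope, r was 0.70 for Kmt2b, 0.63 for Setd1a, 0.65 for Kmt2d, -0.83 for Kdm5a and -0.64 for Kmt2c. Within groups, after the group means were removed, it was 0.73, 0.70, 0.66, -0.89 and -0.69 for the same genes. In the 6 single groups r ranged from 0.09 to 0.93 for Kmt2b, from 0.32 to 0.98 for Setd1a and from 0.43 to 0.92 for Kmt2d. It ranged from -0.96 to -0.48 for Kdm5a and from -0.87 to 0.24 for Kmt2c, whose one positive value was that of 5-Htt +/+ SU.

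The slope went with 78.4% of the variance of Kdm5a within groups, 53.3% of that of Kmt2b and 0.160% of that of Kmt2a, against a median of 36.2% over the 6964 genes of like level. The relation to GC content was not particular to the members. Across the 10 genes, GC content and correlation with the slope had r = 0.80, and across 6943 genes of like level r was also 0.80 (genes are not independent replicates). The slope also differed between groups, with a mean of 0.12 ± 0.17 (log2 per 10 points, SD) in 5-Htt +/- C libraries and of -0.05 to 0.00 in the other 5 groups, of which 5-Htt +/+ SU had the lowest (-0.05 ± 0.05). These are the groups in which Kmt2b was highest and Kdm5a lowest, and Kmt2b lowest and Kdm5a highest. The slope was computed from the same expression values and differed between groups, so slope and group cannot be fully told apart. Whether the slope causes these differences was not tested.

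With the GC slope as a term in the fit, a setting chosen after seeing the data, the difference of Kmt2b between 5-Htt +/- SU and C went from -0.19 to -0.05 (adjusted p = 0.808) and that between the genotype labels in controls from 0.17 to 0.06 (adjusted p = 0.916). That of Kmt2d between 5-Htt +/- SA and C went from -0.16 to -0.03 and that of Setd1a from -0.10 to 0.00. The difference of Kdm5a between 5-Htt +/+ SU and C went from 0.17 to 0.11 (unadjusted p = 0.00405, not called after adjustment). Other differences grew with this term: that of Wdr5 between 5-Htt +/- SU and C went from 0.0031 to 0.09 (adjusted p = 0.480) and that of Kdm5a in the effect of PS between genotypes from 0.01 to -0.11 (adjusted p = 0.772). With the term, 5 of 100 differences had an unadjusted p under 0.05, against 3 without it, and 0 were called. Of all 31208 genes, 1063 to 3029 had one per contrast with the term, and 959 to 4822 without it. The oligodendrocyte markers and the share of mitochondrial reads (4.60% ± 0.677 in 5-Htt +/- C, 5.04% to 5.32% in the other groups) also set the 5-Htt +/- C libraries apart, and their part in these differences was not tested. In tissue, fewer cells of a type and less RNA per cell cannot be told apart.

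**Figure D4:**
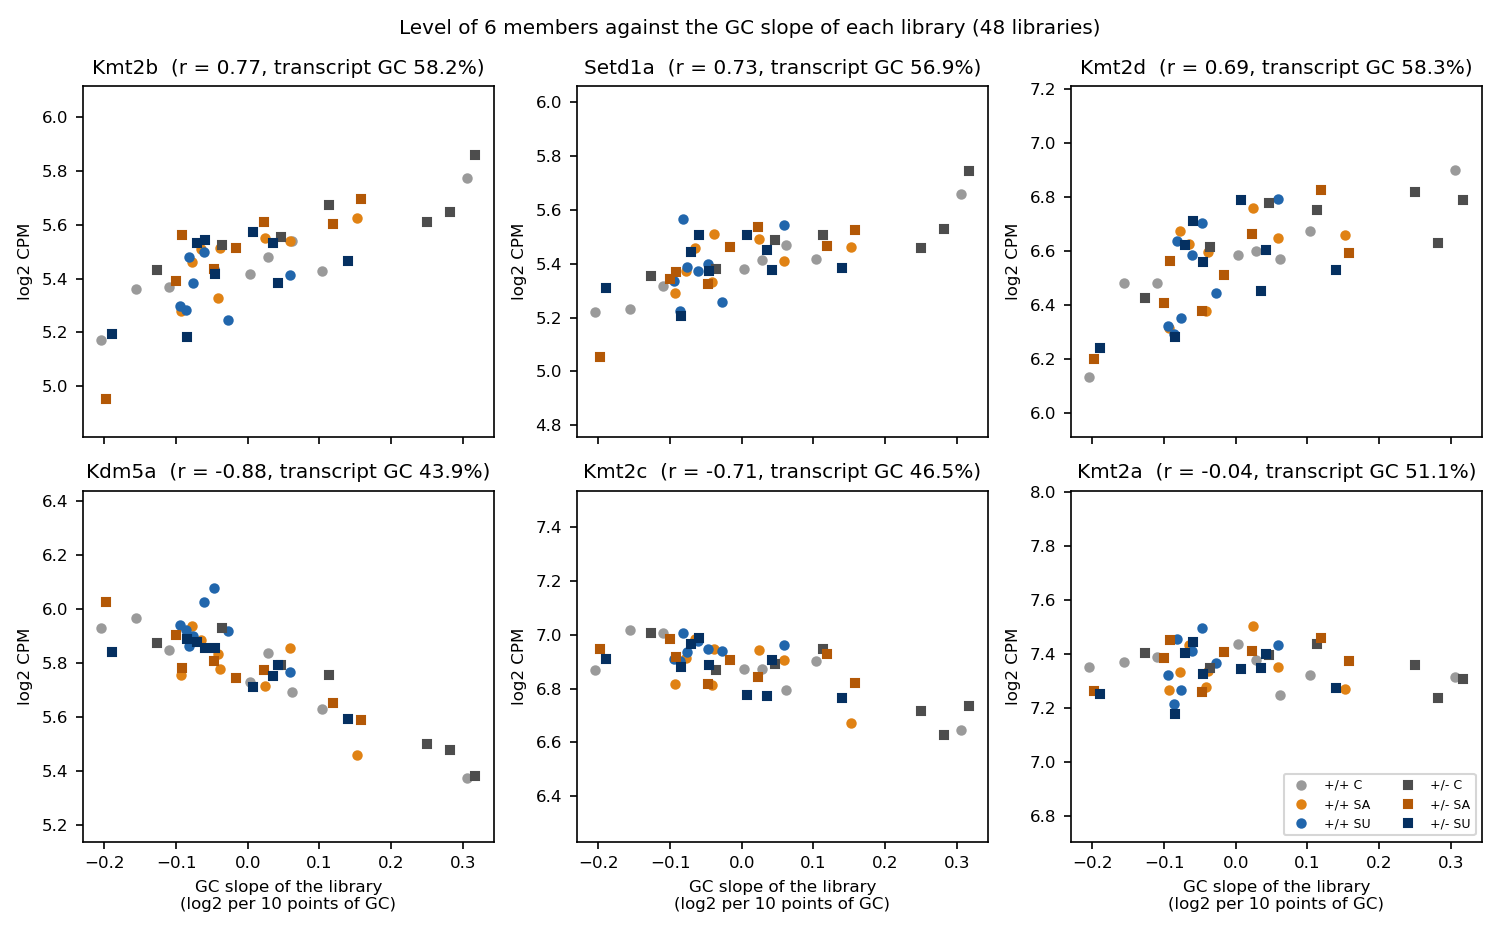
Level of 6 members (log2 CPM, y axis) against the GC slope of the library (log2 per 10 percentage points of GC, x axis) in 48 libraries, coloured by group. Kmt2b, Setd1a and Kmt2d, with transcripts of 56.9% to 58.3% GC, rise with the slope, Kdm5a and Kmt2c, with 43.9% and 46.5% GC, fall, and Kmt2a does neither.

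The pairs of members showed the same sets. Kmt2b and Setd1a were the closest pair (r = 0.90, rho = 0.83), followed by Kmt2b and Kmt2d (r = 0.82, rho = 0.76), Kmt2d and Setd1a (r = 0.81, rho = 0.80) and Kmt2c and Kdm5a (r = 0.77, rho = 0.62). The most opposed pair was Kmt2b and Kdm5a (r = -0.67, rho = -0.63), a writer and an eraser. All 5 pairs had a permutation p of 1e-05 and, over the 45 pairs, an adjusted p of at most 9e-05. Of the 45 pairs, 22 passed the adjusted test on r, 15 with a positive and 7 with a negative correlation. Once the GC slope was removed from the values within groups, Kmt2b and Kdm5a had r = 0.06, whereas Kmt2b and Setd1a had 0.81. Kmt2a and Kmt2d had 0.78 (0.56 within groups with the slope left in), Kmt2a and Kmt2c 0.67 (0.51) and Kmt2c and Kmt2d 0.61 (-0.12). No pair was then below -0.25. Pairs of other genes of like level are not given for comparison, so the counts and r values describe the members only. Only Kmt2b and Setd1a lie on the same chromosome among the strongest pairs, at chr7:30568858-30588726 and chr7:127776670-127800122 (GRCm38), far apart.

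The 5 genes outside the set whose level, less the group mean, was most like the mean of the 10 members over 48 libraries were Nav1 (r = 0.80), Gm20687 (0.80), Tet3 (0.80), Syt7 (0.79) and Rad54l2 (0.79). They were chosen for this likeness, so their r is a description. Nav1 encodes a microtubule-associated protein of growing axons, Tet3 a dioxygenase that oxidises methylcytosine and Syt7 a calcium sensor of synaptic vesicles. Gm20687 is an annotated antisense RNA.

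No further gene was called in 5 lists of other H3K4 enzymes, subunits and readers or in a list of enzymes of other lysines of histone H3. Of the 74 genes in these 6 lists, 71 were tested (24 of them in the list of other lysines) and 0 were called in any of the 10 contrasts (3 symbols, Riox1, Nsd2 and Nsd3, matched no row). The number with an unadjusted p under 0.05 ran from 0 of 71 in the three-way contrast to 10 of 71 in 5-Htt +/- SU against C, of which 3 were higher and 7 lower, 4 of the latter being enzymes of other lysines. In that comparison 15.5% of all genes had one.

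Hdac2, a histone deacetylase of the CoREST complex that holds KDM1A, came nearest to the threshold, with 0.20 ± 0.04 (log2, SE) in 5-Htt +/- SU against C (adjusted p = 0.0649). It had 58.1, 63.0 and 66.1 CPM (lowest, median and highest) in 5-Htt +/- C and 64.6, 72.5 and 79.9 in 5-Htt +/- SU. The ranges overlapped at their edges, and the 5-Htt +/+ C libraries (64.3 to 75.6 CPM) lay with the SU libraries. Among the other 9 CoREST partners the smallest p was that of Hmg20b, which differed between the genotype labels by 0.13 ± 0.04 (adjusted p = 0.926).

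Among 15 subunits of the methyltransferase complexes, Men1, the menin subunit of the KMT2A and KMT2B complexes, differed by -0.22 ± 0.07 in 5-Htt +/- SU against C (adjusted p = 0.152). Its means were 36.4 ± 4.21 and 31.2 ± 3.12 CPM. Hcfc2, a subunit related to host cell factor, differed by 0.17 ± 0.06 in 5-Htt +/+ SU against C (adjusted p = 0.998). Kdm6a, the H3K27 demethylase of the KMT2C and KMT2D complexes, and the core subunits Ash2l, Rbbp5 and Dpy30 were among the 15, and none was called.

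Of 6 other H3K4 methyltransferases, 0 had an unadjusted p under 0.05 in any contrast, and the smallest belonged to Kmt2e (0.15 ± 0.08 in 5-Htt +/- SA against C, adjusted p = 0.432) and Smyd2 (-0.11 ± 0.07 in the same comparison, adjusted p = 0.459). Of 3 other demethylases measured, the X-linked Kdm5c differed by -0.10 ± 0.05 in 5-Htt +/- SA against C (adjusted p = 0.422). The Y-linked Kdm5d stayed at or under 0.421 CPM in all libraries, which are labelled as female, and its difference between the genotype labels in controls (-0.79 ± 0.31, adjusted p = 0.576) rests on these few reads. Of the other Y-linked genes looked at, Uty and Eif2s3y stayed at or under 0.68 CPM. Ddx3y, by contrast, had 8.10 to 13.4 CPM over the libraries, and the reason was not tested.

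Of 13 readers of the mark, Dido1 and Ing2 had the smallest p, with -0.04 ± 0.02 over all groups and -0.15 ± 0.07 in controls between the genotype labels (adjusted p = 0.926 and 0.576). Of 24 enzymes of other lysines of histone H3, Kdm6b, an H3K27 demethylase, differed by -0.25 ± 0.08 in 5-Htt +/- SU against C (adjusted p = 0.177) and Suv39h2, an H3K9 methyltransferase, by 0.31 ± 0.11 in 5-Htt +/- SA against C (adjusted p = 0.312). The 6 other methyltransferases had a median log2 difference of 0.11 in 5-Htt +/- SA against C, where that of all genes was -0.01. For the 71 genes together, the median log2 difference was 0.04 in 5-Htt +/- SU against C and 0.02 in both SA comparisons with C, against 0.00 to -0.01 over all genes.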

How the data were processed

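Hippocampal RNA of 48 mice was sequenced, and the values used are raw read counts, 1 whole number per gene and library, as deposited. According to the processing notes of the submitters, STAR and HTSeq were run on build GRCm38.p5 before DESeq2, whereas the methods of the study name STAR, Salmon and tximport. Their versions and the strand setting were not stated. Libraries were grouped by their labels, each as 1 animal. As litters are not given, p-values may be too small where litters are shared.

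The 31208 genes that reached 5 reads in 3 or more libraries were scaled by upper quartile factors and fitted with a mean per group in edgeR 4.0.16 (R 4.3.3), and 10 contrasts and a test over the 6 groups were made with its quasi-likelihood F test and Benjamini-Hochberg adjustment over all genes tested. Every p not called a permutation p comes from this test. The fit was tested on simulated counts of independent libraries, with changes set in 5-Htt +/- SU only. The simulation held no GC slope and no litters, so it does not cover these. Log2 CPM used a prior count of 2. Exonic length and GC content came from GENCODE M21 (GRCm38), and correlations used 100000 permutations of the libraries in SciPy 1.17.1.

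The members and gene lists were chosen with earlier results of these data known. The rule for named genes took all 10 members in every contrast, of which the text prints some with values and the rest by counts and ranges. From each other list, called genes and up to 2 genes with the smallest p were named, and the 5 genes most like the mean of the members. The smallest chi-square per gene between libraries of a group was 2.62 over 169 pairs, so each library was counted as a separate sample. Alternatives were other tests (DESeq2 1.42.0, likelihood ratio, an earlier quasi-likelihood form), scalings and filters, a replicate block, only the groups compared, added terms, and libraries left out.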

Additional observations from a re-analysis of the deposited data

Results flagged for a closer look

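Among the 60 combinations of 10 members and 6 groups, 4 held a library that stood apart from its group by Dixon's test on log2 CPM. Chance flags about 1 in 20. The gaps below are on the log2 scale, with a critical value of 0.526 for 8 libraries, whereas the levels in brackets are CPM. On the CPM scale the gaps differ, and those of Setd1a and Kdm5a fall under the critical value. In 5-Htt +/- SA replicate 4, Kmt2b (30.9 CPM, the others 41.9 to 51.7) had a gap of 0.594 of the range of the group and Setd1a (33.1 CPM, the others 40.0 to 46.2) a gap of 0.566. This library had the lowest GC slope of its group (-0.20). Kdm5a was low in 5-Htt +/+ SA replicate 5 (43.9 CPM, the others 52.4 to 61.2, gap 0.53), which had the highest GC slope of its group (0.15). Kdm5b was high in 5-Htt +/+ C replicate 7 (83.9 CPM, the others 70.6 to 75.8, gap 0.591), which also had the highest slope of its group (0.31). Over the 48 libraries, however, Kdm5b showed no relation to the slope (r = 0.10). Its lowest value (59.5 CPM) was in 5-Htt +/- C replicate 3, the library with the highest slope of all (0.32). Whether the slope accounts for these values was not tested. No difference between genotypes in the effect of PS, or in SA minus SU, was called for a member.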

How the results depend on the processing

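Under all 13 alternative settings and with each of the 48 libraries left out in turn, 0 of 10 members were called in any test made (11 per setting, and the 7 direct comparisons where only the groups compared were fitted), the smallest adjusted p being 0.0956 (Kmt2b in 5-Htt +/- SU against C, without 5-Htt +/- C replicate 4). No median of the members moved by more than the spread between libraries. Of 100 log2 differences, 23 changed sign with the GC slope as a term, 23 with a term for the first principal component and 20 when the 6 libraries lowest on that component were left out, none of these above 0.11 in size before. Under the other settings with all libraries, at most 8 changed sign, none above 0.01. The count of differences with an unadjusted p under 0.05, 3 of 100, ranged from 1 to 5 over the settings. With 1 library left out it was 9 without 5-Htt +/+ C replicate 7, 7 without 5-Htt +/- C replicate 4 and 6 without 5-Htt +/- SA replicate 7. Without any other library it lay between 2 and 5. In the fit used for the results, 3.07% to 15.5% of all genes had one, depending on the contrast. With the replicate block, 3 of 100 had one and the difference of Kmt2b in 5-Htt +/- SU against C was -0.20. Same-numbered libraries of different groups had a median correlation of 0.03 (115 pairs, 45 over 0.1) against 0.00 for other pairs, so the numbers were not taken to pair animals. The GC slope and the earlier quasi-likelihood form were added after seeing the data.

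With 7 to 9 libraries per group, the widest 95% interval of a member reached a log2 difference of -0.36, so a p over the threshold does not show that a level was unchanged. Counts of Setd1a and Setd1b share their region with other gene models. RNA of whole hippocampus shows neither which cells express a gene nor the amount of enzyme or mark.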
